A study of Mus musculus with 34 samples.

Results

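The interferon response genes described here were 35 genes: the ligand Ifnb1, 7 interferon regulatory and STAT transcription factors, 10 antiviral effectors, 5 members of the 2-5A synthetase family, 6 RNA or nucleic acid sensors and editing or kinase enzymes, 3 regulators of signalling and 3 guanylate-binding proteins. They were taken as a named list, and 34 of them were among the 21938 protein-coding genes of the GENCODE annotation, while Mx2 is annotated as a polymorphic pseudogene. A peak was assigned to a gene when its midpoint lay in the gene body or within 20 kb on either side on mm10. The background was the 14453 protein-coding genes that had a PU.1 peak in Veh in the same kind of window, and 31 of the 35 interferon response genes were among them. The windows had a median length of 54.7 kb for the interferon response genes and 61.9 kb for the background genes, and both had a median of 2 annotated start sites. Because neighbouring members share sequence, the 35 windows joined into 30 regions, and Ifit2 and Ifit3, Rsad2 and Cmpk2, and Oasl1 and Oasl2 shared AP-1 peaks of C57Bl/6EiJ. The windows of Oas2 and Oas3 and of Gbp3 and Gbp5 overlapped without such a shared peak.

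The study profiled AP-1 transcription factors by ChIP-seq in thioglycollate elicited macrophages (TGEMs), cells that enter the mouse peritoneum after an irritant is injected and that were then cultured. The cells came from mice labelled C57Bl/6EiJ, Balb/cJ or PPARgKO, where the title of the last places the deletion on a C57Bl6 background. The methods name male mice for the C57Bl/6 and Balb/cJ strains and do not give the sex of the knockout mice. The cells received PBS (Veh) or KLA, a lipid A that activates TLR4, for 1 h. The 30 peak lists comprised 17 for C57Bl/6EiJ (ATF3, Jun, JunD, Fos, FosL2, JunB, PU.1 and CEBPa with Veh and KLA, and PPARg with Veh), 10 for Balb/cJ (ATF3, Jun, JunD, Fos and JunB with Veh and KLA) and 3 for PPARgKO (ATF3, Jun and JunD with Veh). The labels and methods read here do not say which cells carried the PPARg deletion or which Cre was used, and peak lists of AP-1 factors do not show whether the gene was deleted. The methods name the first strain as C57Bl/6J where the sample labels say C57Bl/6EiJ.

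Each condition had 1 list in which the authors had combined the replicate experiments, so no difference between lists could be tested against replicate error and all values are descriptions. Each peak carried a count that is not scaled to library size. A peak is therefore given by its count and by its percentile, the rank of that count within its own list with 100 as the highest. In C57Bl/6EiJ the lowest JunD count was 27 with Veh and 120 with KLA, so a higher JunD count with KLA is not by itself a gain. Percentiles of the strongest peak also shifted at background genes with a peak in both lists. They were higher with KLA at 67.1% for ATF3, 59.0% for JunD and 43.6% for Jun. The lists differed in length: in C57Bl/6EiJ the ATF3 list held 23160 peaks with Veh and 36745 with KLA, the Jun list 15548 and 17480, the JunD list 19653 and 31640, the Fos list 1804 and 24365, the FosL2 list 5329 and 10619, and the JunB list 463 and 13375. In Balb/cJ with Veh the Fos list was empty and the JunB list held 9 peaks. Cell identity was checked by PU.1, since no expression values were in the files: the 7 macrophage markers had between 6 and 13 PU.1 peaks with Veh, while Cd8a, Pax5, Alb and Ly6g had 0, although the B cell marker Ms4a1 had 6.

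Type I interferon is made when sensors such as TLR4 activate IRF3 and NF-kB, which together with AP-1 switch on Ifnb1. The secreted interferon beta then acts through its receptor on a complex with STAT2 and IRF9, which binds the interferon-stimulated response element (ISRE) in front of antiviral genes. AP-1 proteins are dimers of Jun, Fos and ATF monomers that bind a short palindrome known as the TRE, or its one base longer form, the CRE.

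The sequences below show what DNA lay under these peaks at the genes on which the results turn. The first 7 are promoters from RefSeq on GRCm38.p6, which shares its coordinates with mm10: the 250 bases ahead of the start, shortened where GENCODE places an exon in them. They are those of Ifnb1 and of 6 genes whose start sites carried AP-1 peaks with KLA. Capitals mark exact matches to the ISRE core (GAAA, any 2 bases, GAAA), the TRE (TGACTCA), the CRE (TGACG followed by TCA) and an NF-kB motif (GGG, any 2 bases, TTTCC), on either strand, so that an ISRE on the other strand reads TTTC, 2 bases, TTTC and a TRE reads TGAGTCA. Matches were allowed to share bases. The 6 promoters other than that of Ifnb1 all hold an ISRE core, which was found in 12 of the 29 members with a RefSeq promoter. They are examples and do not stand for every start site with a peak.
Ifnb1 promoter, chr4:88522795-88523044, minus strand: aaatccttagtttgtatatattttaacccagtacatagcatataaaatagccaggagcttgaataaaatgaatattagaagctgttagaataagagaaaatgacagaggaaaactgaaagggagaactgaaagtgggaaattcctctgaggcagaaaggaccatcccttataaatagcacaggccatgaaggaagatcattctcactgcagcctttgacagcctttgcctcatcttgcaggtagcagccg
Isg15 promoter, chr4:156200819-156201068, minus strand: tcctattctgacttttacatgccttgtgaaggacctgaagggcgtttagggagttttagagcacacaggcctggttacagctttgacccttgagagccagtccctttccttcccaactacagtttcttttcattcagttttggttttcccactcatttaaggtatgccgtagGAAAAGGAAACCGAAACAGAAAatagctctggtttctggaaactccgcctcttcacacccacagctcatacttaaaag
Ifit3 promoter, chr19:34583279-34583528, plus strand: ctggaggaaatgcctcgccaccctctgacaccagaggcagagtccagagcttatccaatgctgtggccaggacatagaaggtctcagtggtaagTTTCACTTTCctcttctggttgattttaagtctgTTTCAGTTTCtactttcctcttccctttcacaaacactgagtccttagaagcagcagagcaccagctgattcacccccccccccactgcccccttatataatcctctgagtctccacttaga
Bst2 promoter, chr8:71537473-71537722, minus strand: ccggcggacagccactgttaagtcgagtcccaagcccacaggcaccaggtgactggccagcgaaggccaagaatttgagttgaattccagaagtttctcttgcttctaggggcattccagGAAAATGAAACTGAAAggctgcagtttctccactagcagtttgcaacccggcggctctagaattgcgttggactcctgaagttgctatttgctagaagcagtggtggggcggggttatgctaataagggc
Rsad2 promoter, chr12:26456453-26456702, minus strand: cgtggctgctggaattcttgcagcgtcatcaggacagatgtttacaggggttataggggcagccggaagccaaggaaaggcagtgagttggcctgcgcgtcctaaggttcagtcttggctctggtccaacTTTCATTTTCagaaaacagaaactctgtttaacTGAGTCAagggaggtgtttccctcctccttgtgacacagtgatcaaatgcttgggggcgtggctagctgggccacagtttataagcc
Oas3 promoter, chr5:120777662-120777909, minus strand: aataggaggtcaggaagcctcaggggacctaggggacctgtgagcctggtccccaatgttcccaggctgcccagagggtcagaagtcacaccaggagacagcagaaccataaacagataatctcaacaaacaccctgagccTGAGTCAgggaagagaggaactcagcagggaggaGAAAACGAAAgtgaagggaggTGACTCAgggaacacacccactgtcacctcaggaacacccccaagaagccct
Gbp5 promoter, chr3:142496684-142496899, plus strand: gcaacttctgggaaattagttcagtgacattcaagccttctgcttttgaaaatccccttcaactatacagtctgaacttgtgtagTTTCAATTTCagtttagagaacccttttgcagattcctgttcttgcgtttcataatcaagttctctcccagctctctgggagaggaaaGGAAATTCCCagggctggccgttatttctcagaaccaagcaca
The next 5 are the central 160 bases of AP-1 loci away from exons, chosen because they hold the strongest peaks of Ifnb1, Rsad2, Gbp5 and Dhx58 and a locus near the start of Irf1 that had peaks with KLA and none with Veh. A locus is a stretch where peaks of the 12 AP-1 lists of C57Bl/6EiJ overlapped by at least 1 bp. Distances run from the nearest annotated start of the gene, with negative values upstream.
Ifnb1 locus at -14809 bp, chr4:88537503-88537662, plus strand: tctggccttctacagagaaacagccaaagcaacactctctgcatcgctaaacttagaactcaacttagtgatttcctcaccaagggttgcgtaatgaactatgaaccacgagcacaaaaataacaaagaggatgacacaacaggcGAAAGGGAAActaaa
Rsad2 locus at -3855 bp, chr12:26460227-26460386, plus strand: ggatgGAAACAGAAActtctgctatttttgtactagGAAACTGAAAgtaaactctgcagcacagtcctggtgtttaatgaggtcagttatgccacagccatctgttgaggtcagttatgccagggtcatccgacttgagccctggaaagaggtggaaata
Gbp5 locus at 2344 bp, chr3:142499164-142499323, plus strand: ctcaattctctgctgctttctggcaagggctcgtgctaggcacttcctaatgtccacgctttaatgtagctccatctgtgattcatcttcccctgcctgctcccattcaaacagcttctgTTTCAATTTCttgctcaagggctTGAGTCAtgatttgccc
Dhx58 locus at 1760 bp, chr11:100702431-100702590, plus strand: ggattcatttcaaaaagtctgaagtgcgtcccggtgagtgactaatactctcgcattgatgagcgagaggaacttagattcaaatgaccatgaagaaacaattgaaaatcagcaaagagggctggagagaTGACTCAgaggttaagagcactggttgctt
Irf1 locus at -1142 bp, chr11:53768792-53768951, plus strand: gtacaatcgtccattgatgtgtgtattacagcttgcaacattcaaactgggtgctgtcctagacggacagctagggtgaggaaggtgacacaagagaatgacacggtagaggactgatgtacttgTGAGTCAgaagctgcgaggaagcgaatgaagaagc
The promoter of Ifnb1 holds no exact match, those of Isg15, Ifit3 and Bst2 hold ISRE cores, those of Rsad2 and Oas3 hold both an ISRE core and a TRE, and that of Gbp5 holds an ISRE core and an NF-kB match. Exact matching misses looser forms. The Ifnb1 promoter holds GAAA repeats at another spacing (gaaaactgaaa) and letters close to the NF-kB pattern (gggaaattcc), so its lack of a match does not show that such sites are absent.

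In C57Bl/6EiJ TGEMs after KLA, a larger share of the interferon response genes than of the background genes had a peak for each of the 6 monomers, by 18.8 to 30.5 percentage points. With Veh the shares lay closer together. ATF3 peaks were found at 28 of the 35 genes with Veh (80.0%, background 68.6%) and at 34 with KLA (97.1%, background 77.9%). JunD peaks were found at 24 with Veh (68.6%, background 67.0%) and at 33 with KLA (94.3%, background 74.3%). For these broadly bound monomers the background share was also higher with KLA than with Veh, but by fewer points than that of the interferon response genes. Jun peaks were found at 23 genes with Veh (65.7%, background 57.9%) and 26 with KLA (74.3%, background 55.5%), so that the background share was lower with KLA than with Veh and that of the interferon response genes higher.

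The monomers with short Veh lists were rare at these genes before treatment. Fos peaks were found at 7 of the 35 genes with Veh (20.0%, background 19.6%) and at 31 with KLA (88.6%, background 64.5%). FosL2 peaks were found at 11 with Veh (31.4%, background 31.5%) and at 25 with KLA (71.4%, background 41.0%). JunB peaks were found at 2 with Veh (5.71%, background 3.51%), Oasl2 and Trim25, and at 24 with KLA (68.6%, background 44.4%). Fos, FosL2 and JunB thus stood at the background share with Veh or within a few points of it, and above it with KLA.

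List length moved with treatment, and when each list was reduced to its strongest 10000 peaks the difference from background after KLA ranged from -1.8 percentage points for Fos to 13.2, with 5 of 6 monomers above background. With Veh the same reduction placed the interferon response genes below background for ATF3, Jun and JunD, by -14.4, -21.7 and -5.1 points. A window of 5 kb in place of 20 kb did so for the same monomers, by -7.2, -5.3 and -15.0 points. In the reduction to 10000 peaks the PU.1 list that sets the background was cut too. The background genes there were therefore not those of the main comparison, and the part of this change in the differences was not tested. Other factors moved as well. CEBPa peaks were found at 21 of the 35 genes with Veh (60.0%, background 54.1%) and at 27 with KLA (77.1%, background 54.4%), and PU.1 peaks at 32 with Veh and 34 with KLA (97.1%, background 92.3%). PPARg peaks with Veh were found at 29 (82.9%, background 86.4%). The gain of peaks with KLA was thus seen for CEBPa also, and the part of a general change at these genes in the AP-1 values was not tested.

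**Figure D1:**
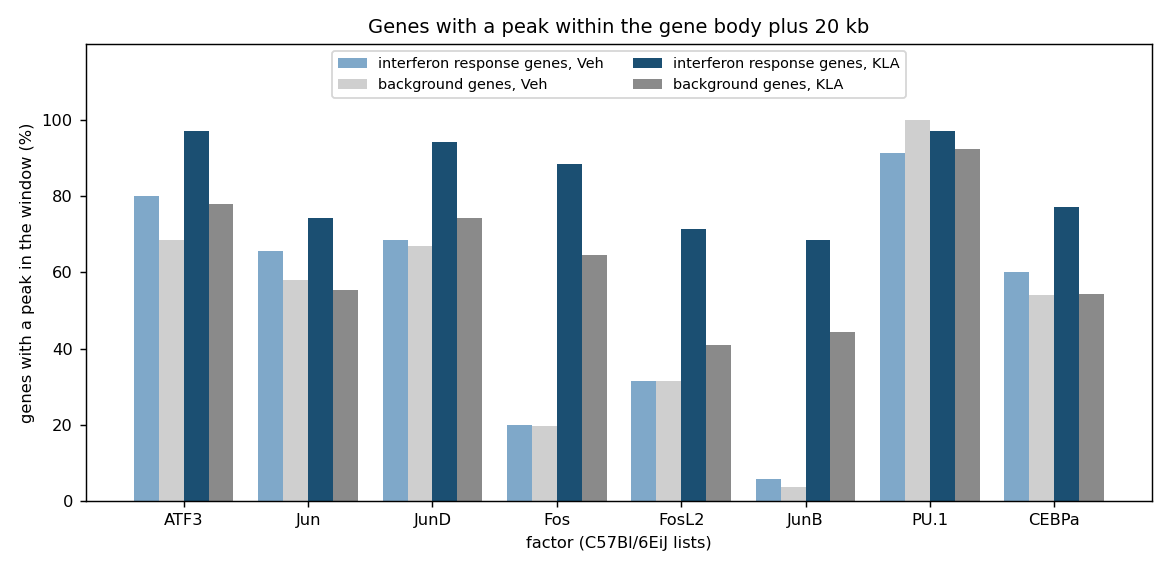
Percent of the 35 interferon response genes (blue) and of the 14453 background genes (grey) with at least 1 peak in the gene body plus 20 kb, for 8 factors in C57Bl/6EiJ TGEMs with Veh (light) and KLA (dark). The background is defined by PU.1 with Veh, so that bar is at 100%. All 6 AP-1 monomers stand above background with KLA, as does CEBPa at 77.1%, while with Veh Fos and FosL2 stand at the background share.

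Most interferon response genes had more peaks after KLA, not only more monomers. The number of ATF3 peaks was higher with KLA than with Veh at 32 of the 35 genes (51.9% of background genes), that of JunD at 28 (background 46.9%), that of Fos at 30 (background 59.8%), that of JunB at 24 (background 43.7%), that of Jun at 19 (background 26.1%) and that of FosL2 at 19 (background 27.8%). The number was lower with KLA for Jun at 7 genes (background 24.7%), for FosL2 at 3 (background 12.8%) and at 0 for ATF3 (background 10.8%), JunD (14.0%), Fos (3.35%) and JunB (0.45%).

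Among the genes without a peak in the Veh list, a KLA peak was found at 6 of 7 for ATF3 (85.7%, background 42.4%), at 9 of 11 for JunD (81.8%, background 39.4%), at 24 of 28 for Fos (85.7%, background 59.6%), at 15 of 24 for FosL2 (62.5%, background 26.4%), at 22 of 33 for JunB (66.7%, background 42.8%) and at 6 of 12 for Jun (50.0%, background 23.8%). Among the genes with a Veh peak, none was found in KLA at 3 of 23 for Jun (Irf3, Eif2ak2 and Trim21, background 21.5%), at 1 of 11 for FosL2 (Bst2, background 27.4%) and at 0 for ATF3 (background 5.87%), JunD (8.46%), Fos (15.3%) and JunB (12.4%). The genes without a Veh peak are few for ATF3 and JunD, so these shares rest on small numbers. Counted once each, the peaks in the 35 windows went from 68 to 154 for ATF3, from 55 to 144 for JunD, from 7 to 97 for Fos, from 44 to 65 for Jun, from 19 to 56 for FosL2 and from 2 to 59 for JunB. PU.1 went from 118 to 161 and CEBPa from 35 to 55. The 6 AP-1 lists were also longer with KLA, and background peaks per gene rose as well. Peaks per gene with Veh and KLA were 2.06 and 4.8 for ATF3 (background 2.0 and 3.07) and 1.66 and 4.49 for JunD (1.8 and 2.72). For Fos they were 0.229 and 3.03 (0.228 and 2.02) and for Jun 1.31 and 2.06 (1.36 and 1.48). For FosL2 they were 0.6 and 1.83 (0.539 and 0.873) and for JunB 0.0571 and 1.86 (0.0379 and 1.06).

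At least 1 AP-1 monomer had a peak at 29 of the 35 genes with Veh (82.9%, background 80.5%) and at 34 with KLA (97.1%, background 83.6%). Peaks of all 6 monomers were found with KLA at 21 genes (60.0%, background 31.7%). The number of monomers was higher with KLA than with Veh at 30 genes (85.7%, background 63.1%). It was lower at Irf3, from 5 to 4, and at Eif2ak2, from 3 to 2, and it was the same at Oasl2 with 6, at Trim21 with 3 and at Oas2 with 0. Oas2, a 2-5A synthetase that activates RNase L in the presence of double-stranded RNA, was the 1 member with no AP-1 peak in any C57Bl/6EiJ list, although its window held 2 PU.1 peaks with each treatment. In 5 genes (14.3%, background 8.08%) no AP-1 peak was found with Veh and at least 1 with KLA: Irf7, Ifit1, Ifit2, Ifih1 and Ddx58.

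The rank of each gene's strongest peak also differed from background after KLA for some monomers. A strongest peak is a maximum, and with KLA these genes had more peaks to draw from for all 6 monomers. For ATF3 there were 4.8 peaks per gene (background 3.07), for JunD 4.49 (2.72) and for Fos 3.03 (2.02). The part of peak number in these ranks was not tested. Among genes with a peak, the median percentile of the strongest peak was 81.2 for ATF3 with KLA (background 71.3), 81.1 for JunD (background 68.3), 78.6 for Jun (background 63.0) and 77.4 for JunB (background 62.3). For Fos it was 66.5 in both sets, and for FosL2 it was 59.1 against 60.5. With Veh the corresponding medians were 61.9 for ATF3 (background 66.5), 54.5 for Jun (background 62.2) and 66.0 for JunD (background 62.6). Taking the best of the 6 monomers with KLA, 17 of the 35 genes had a peak in the top 10% of its list (48.6%, background 22.0%). The median of that best percentile was 88.3 over the 34 genes with a peak, against 72.6 for the background. That best was drawn from more monomers here, since 60.0% of these genes and 31.7% of background genes had all 6.

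A window can hold a neighbour's regulatory DNA. Of the 34 strongest KLA peaks, 22 lay nearest to the start of the member itself, 3 nearest to another member and 9 nearest to a gene outside the list, and 10 lay within 1 kb of the member's own start. The 9 include the strongest peak of Stat2, which lay nearest to Il23a.

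**Figure D2:**
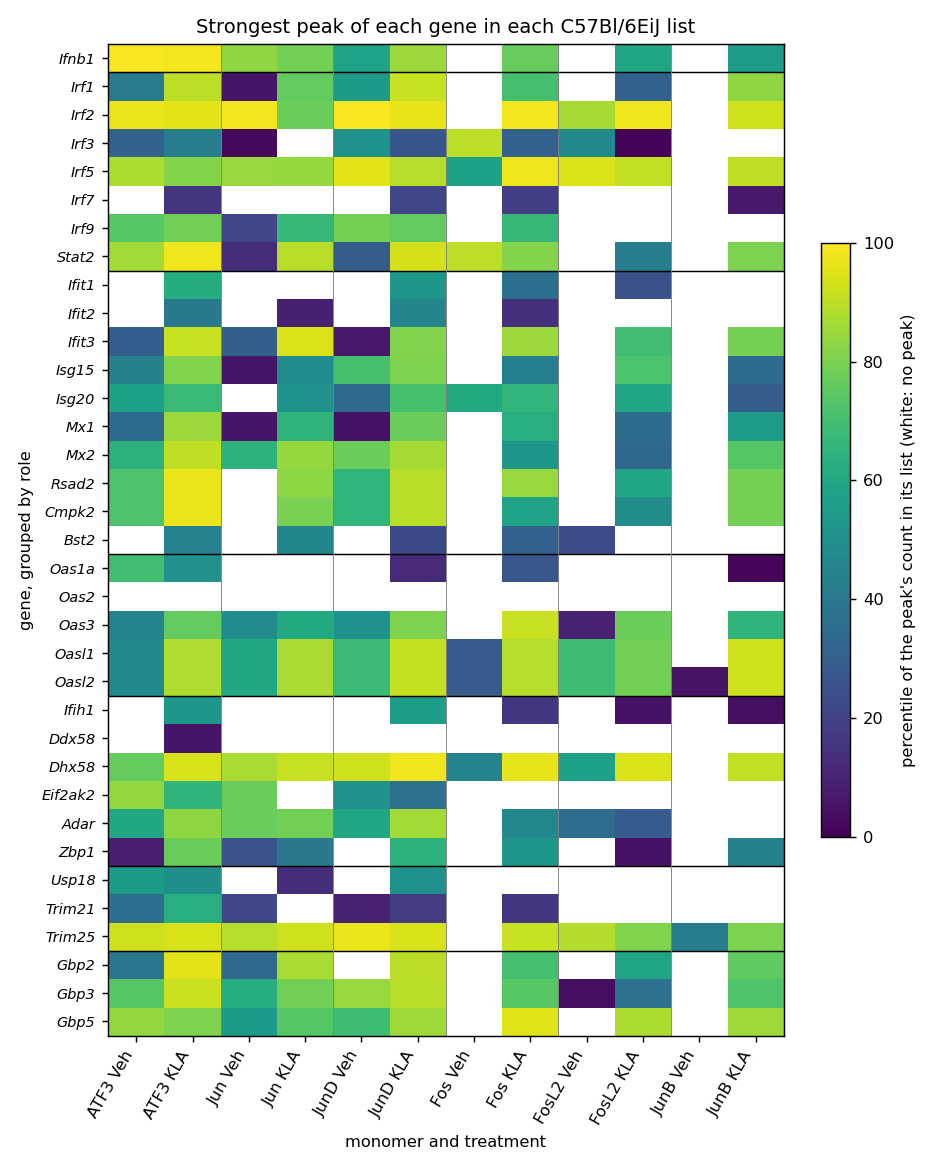
Percentile of the strongest peak of each interferon response gene (rows, grouped by role) in each of the 12 AP-1 lists of C57Bl/6EiJ (columns), from 0 to 100 in the list, with white where the gene has no peak in that list. The Fos and JunB columns are mostly white with Veh and mostly filled with KLA, Irf2, Irf5, Dhx58 and Trim25 are high in many columns, and the Oas2 row is empty.

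Ifnb1, which encodes interferon beta itself, had peaks of 3 monomers with Veh and of all 6 with KLA. Its strongest ATF3 peak lay at chr4:88537483-88537699, at -14817 bp from the start and between genes. The ATF3 count there was 282 with Veh (percentile 99.6) and 300 with KLA (percentile 98.4), the Jun count 43 and 44 (percentiles 83.3 and 76.1), and the JunD count 55 and 517 (percentiles 57.5 and 85.1). This distal locus therefore already ranked near the top of the ATF3 list before treatment. Fos, FosL2 and JunB had peaks there with KLA (percentiles 30.9, 59.1 and 54.7) and none with Veh. The start site behaved otherwise: at chr4:88522784-88523033 no AP-1 monomer had a peak with Veh, and with KLA ATF3 had a count of 94 (percentile 63.1), JunD 271 (percentile 48.5) and Jun 24 (percentile 28.9). PU.1 also had a peak there with KLA (count 94, percentile 71.0) and none with Veh. A further locus at 6975 bp went from percentile 18.4 to 92.8 for ATF3 and from 31.8 to 83.4 for JunD, and gained Fos and JunB peaks at percentiles 76.7 and 43.6.

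Of the 7 transcription factors, 6 had more monomers with KLA than with Veh (63.1% of background genes). Irf2, a repressor and activator that binds the same DNA as Irf1, had the highest percentile of any AP-1 KLA peak of the 35 genes in C57Bl/6EiJ, 98.6 for Fos (count 185) in an intron at chr8:46811408-46811616. That locus was occupied with Veh by ATF3 (percentile 97.2), Jun (98.4), JunD (99.0) and FosL2 (87.0), and Fos and JunB (92.8 with KLA) joined after treatment, while Jun was at percentile 77.4 with KLA. Irf5, an activator of inflammatory cytokine genes, had a peak of 5 monomers at its start site at chr6:29529063-29529377 with Veh and of all 6 with KLA, the highest being Fos with KLA (count 165, percentile 97.3). Irf2 and Irf5 were thus occupied by several monomers before treatment.

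Irf1, an early activator of interferon and inflammatory genes, had 6 of its 11 AP-1 loci upstream of or at its start. At chr11:53763979-53764377 ATF3 went from a count of 49 (percentile 40.7) to 185 (percentile 89.9) and JunD from 48 (percentile 46.4) to 613 (percentile 91.5), and Jun, Fos, FosL2 and JunB had peaks with KLA alone at percentiles 76.1, 66.5, 26.8 and 83.4. At the printed locus -1142 bp from the start of Irf1, 5 monomers had peaks with KLA, led by ATF3 (count 111, percentile 71.3) and Fos (count 71, percentile 70.7), and none had a peak with Veh. The start site of Irf1 had peaks with both treatments.

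The remaining factors varied in occupancy. Stat2 had peaks of 4 monomers with Veh and of all 6 with KLA, while Irf3, Irf7 and Irf9 each had peaks of 4 monomers with KLA. Irf7, the amplifier of the interferon response, had a single AP-1 locus, at -2624 bp, with KLA peaks of ATF3, JunD, Fos and JunB at percentiles of 15.2, 21.3, 18.4 and 6.7 and none with Veh. Irf9, the DNA-binding partner of the STAT proteins, had a JunD peak at its start with KLA (count 148, percentile 8.2), and its strongest peak lay nearest to Psme2 (ATF3, count 132, percentile 78.7). Stat2 had peaks of ATF3, JunD and Fos at -207 bp with KLA (percentiles 58.4, 17.9 and 34.8) and a Fos peak there with Veh (percentile 90.1), while its strongest peak (ATF3, chr10:128298854-128299062, count 282, percentile 97.9) lay 28382 bp from its start. Irf3, the factor that TLR4 signalling activates directly, had its strongest KLA peak at percentile 42.3 near Scaf1 and no AP-1 peak at its start with either treatment.

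All 10 antiviral effectors had more monomers with KLA than with Veh (63.1% of background genes). An AP-1 peak lay within 1 kb of a start at 9 with KLA (background 38.6%) and at 3 with Veh (background 39.0%). Rsad2, which encodes viperin, and its neighbour Cmpk2, a mitochondrial nucleotide kinase, shared the strongest peak of the group at chr12:26460211-26460431, at -3869 bp from the start of Rsad2 and in the printed locus with 2 ISRE cores. There ATF3 went from a count of 83 (percentile 72.2) to 261 (percentile 97.0) and JunD from 62 (percentile 66.0) to 575 (percentile 89.3), and Jun, Fos, FosL2 and JunB had peaks with KLA alone at percentiles 79.8, 52.8, 46.1 and 79.2. CEBPa was at this locus with both treatments (percentiles 82.4 and 91.1) and PU.1 with KLA alone at a count of 33. The start site of Rsad2, whose promoter holds an ISRE core and a TRE, had KLA peaks of ATF3 (count 138, percentile 80.4), JunD (count 467, percentile 80.4), Jun (count 34, percentile 58.5) and Fos (count 57, percentile 57.8) at -101 bp and no AP-1 peak with Veh.

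The other effectors with start-site peaks in KLA alone were weaker there. Cmpk2 had ATF3, JunD, FosL2 and JunB peaks at its start, the strongest at percentile 47.0. Isg15, a ubiquitin-like protein joined to other proteins, had ATF3 (count 92, percentile 62.0), JunD (count 368, percentile 67.7), Jun (percentile 48.6), JunB (35.4) and Fos (7.0). Ifit1, which binds viral RNA lacking the host cap, had ATF3 (count 92, percentile 62.0), JunD (count 290, percentile 53.0), Fos (36.6) and FosL2 (24.7). Ifit3, a partner of Ifit1, had JunD (count 259, percentile 45.4), ATF3 (40.3), Fos (13.7) and Jun (8.9) at its start. At Ifit3 the strongest peak lay far off, at 24382 bp and nearest to Ifit3b, where Jun went from percentile 30.1 to 94.6. Bst2, which tethers budding virions to the cell, had ATF3 (count 51, percentile 24.8) and JunD (count 137, percentile 4.3). The start sites of these 5 genes thus had between 2 and 5 monomers with KLA, and those of Isg15, Ifit3 and Bst2 are the printed promoters with ISRE cores.

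Ifit2 and the Mx and Isg20 genes completed the group. Ifit2, another RNA-binding member of the Ifit family, had its strongest KLA peak at percentile 45.4, in the start region of Ifit3. Isg20, an RNA exonuclease, had ATF3 and JunD at its start with Veh and all 6 monomers with KLA, at up to percentile 70.8. Mx2 had ATF3, Jun and JunD at its start with Veh and all 6 with KLA, ATF3 going from percentile 64.4 to 90.5, and Mx1, an antiviral GTPase like Mx2, had ATF3 alone with Veh and 4 monomers with KLA at its start.

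**Figure D3:**
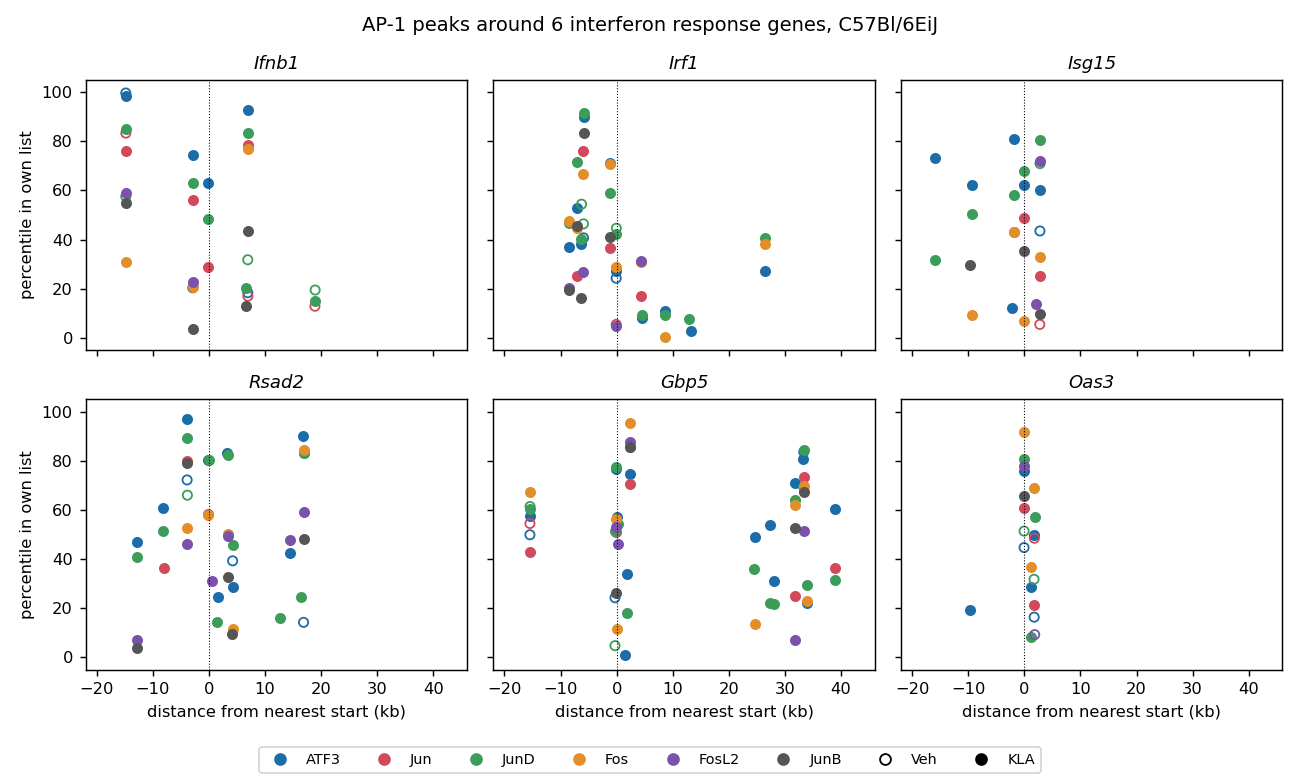
AP-1 peaks in the windows of 6 interferon response genes in C57Bl/6EiJ TGEMs, by distance from the nearest annotated start of the gene (horizontal axis, kb, negative upstream) and percentile of the count in its own list (vertical axis), coloured by monomer, open for Veh and filled for KLA. Filled points lie at the starts of Ifnb1, Isg15 and Rsad2 where there are no open points, and the ATF3 peaks at the distal locus of Ifnb1 are high with both treatments.

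Among the 5 2-5A synthetases, Oasl1, Oasl2 and Oas3 had all 6 monomers with KLA (31.7% of background genes). Oasl1, an inhibitor of Irf7 translation in mice, and Oasl2 shared their strongest peak at chr5:114926862-114927099 in an intron of Oasl1 (JunB with KLA, count 77, percentile 92.8), where ATF3 went from percentile 37.8 to 87.9 and JunD from 34.1 to 91.1. The start of Oasl1 had 5 monomers with KLA and none with Veh within 1 kb, led by ATF3 (count 170, percentile 87.5) and Jun (count 48, percentile 80.9). Oasl2 had the reverse at its own start, weak JunB (count 15, percentile 5.2) and Jun (count 14, percentile 5.5) peaks with Veh and none with KLA. At the start of Oas3, ATF3 went from percentile 44.7 to 75.8 and JunD from 51.4 to 80.8, and Fos (count 122, percentile 91.7), FosL2, Jun and JunB had peaks with KLA alone. Oas1a had a Fos peak of percentile 0.3 within 1 kb of its start with KLA, and its strongest peak lay nearest to Oas1g (ATF3, percentile 50.5).

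The sensors and enzymes covered the full range. Dhx58, a RIG-I-like receptor also called LGP2, had an intronic TRE locus at chr11:100702283-100702740 with 5 monomers with Veh and all 6 with KLA, led by JunD with KLA (count 806, percentile 98.0) and with Veh (count 112, percentile 92.6). Zbp1, a sensor of Z-form nucleic acids, had no AP-1 peak at -78 bp with Veh and all 6 monomers there with KLA, at up to percentile 77.4 for ATF3, although ATF3 and Jun had a peak elsewhere within 1 kb of a start of Zbp1 with Veh. Ifih1, the RNA sensor MDA5, had ATF3 (count 78, percentile 52.9) and JunD (count 302, percentile 55.7) peaks at its start with KLA and no AP-1 peak in its window with Veh. Ddx58, the RNA sensor RIG-I, had only ATF3 peaks with KLA, the strongest at its start with a count of 37 and percentile 5.5. Adar, which edits adenosine in double-stranded RNA, had weak start-site peaks with KLA (ATF3 percentile 5.5, JunD percentile 1.8) and a stronger intronic locus (JunD with KLA, percentile 86.1). Eif2ak2, the RNA-activated kinase PKR, had a single AP-1 locus at -8631 bp, where ATF3 went from percentile 83.9 to 65.3 and JunD from 51.4 to 37.5 with KLA, and Jun (percentile 77.1) had a peak with Veh alone. PU.1 went from percentile 92.9 to 70.1 and CEBPa from 87.3 to 68.7 at this Eif2ak2 locus, and their part in the AP-1 values was not tested.

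The 3 regulators differed from each other. Trim25, the ubiquitin ligase that activates RIG-I, was occupied with both treatments: at chr11:88994303-88994535 ATF3 had a count of 152 with Veh (percentile 92.8) and 218 with KLA (percentile 94.0), and JunD was at percentiles 93.6 and 87.0. Trim21, an intracellular antibody receptor, had a JunD peak of percentile 9.2 at its start with Veh and an ATF3 peak of percentile 4.2 with KLA. Usp18, which removes Isg15 from proteins and dampens receptor signalling, had no start-site peak, and its strongest peak with KLA lay nearest to Tuba8 (JunD, percentile 51.4).

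All 3 guanylate-binding proteins, GTPases that attack pathogen vacuoles, had all 6 monomers with KLA (31.7% of background genes). Their best percentiles lay between 92.1 and 95.6. At the start of Gbp2, ATF3 went from a count of 48 (percentile 39.3) to 238 (percentile 95.6) at chr3:142620406-142620713 and Jun from percentile 34.2 to 87.3, and JunD (percentile 89.5), Fos (70.7), FosL2 (59.1) and JunB (75.6) had peaks with KLA alone. Gbp5 had its strongest peak in an intron at chr3:142499155-142499367 (Fos with KLA, count 145, percentile 95.3), the printed locus with an ISRE core and a TRE, where all 6 monomers had peaks with KLA and none with Veh. At Gbp3 the start site carried ATF3, Jun, JunD and FosL2 with Veh, and ATF3 went from percentile 73.8 to 92.1.

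Start sites showed the widest gap between the interferon response genes and the background. An AP-1 peak lay within 1 kb of an annotated start at 16 of the 35 genes with Veh (45.7%, background 39.0%) and at 28 with KLA (80.0%, background 38.6%). At 13 genes (37.1%, background 9.02%) such a peak was found with KLA and not with Veh: Ifnb1, Irf9, Ifit1, Ifit3, Isg15, Rsad2, Cmpk2, Bst2, Oas1a, Oasl1, Ifih1, Ddx58 and Adar. The opposite was found at 1 gene, Oasl2 (2.86%, background 9.49%). The background gained and lost such peaks about equally, whereas the interferon response genes mostly gained them. Some of the 13 rest on peaks low in their lists: Oas1a (percentile 0.3), Ddx58 (5.5), Adar (5.5 and 1.8), Irf9 (8.2) and Bst2 (at most 24.8). These start-site counts were not repeated with other peak thresholds.

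By monomer, ATF3 was within 1 kb of a start at 13 genes with Veh (37.1%, background 23.7%) and 26 with KLA (74.3%, background 29.3%), and JunD at 11 (31.4%, background 25.4%) and 25 (71.4%, background 28.9%). Fos was there at 2 genes with Veh (5.71%, background 7.51%) and 18 with KLA (51.4%, background 17.7%), and FosL2 at 4 (11.4%, background 7.33%) and 16 (45.7%, background 7.89%). Jun was there at 9 (25.7%, background 16.9%) and 14 (40.0%, background 17.0%), and JunB at 1 (2.86%, background 0.346%) and 11 (31.4%, background 8.11%). The FosL2 shares at background starts thus differed by less than 1 percentage point between treatments. PU.1 peaks within 1 kb of a start were found at 19 genes with Veh (54.3%, background 44.3%) and 25 with KLA (71.4%, background 45.7%), with KLA and not Veh at 6 (17.1%, background 7.53%). CEBPa peaks there were found at 6 genes (17.1%, background 11.4%) and 9 genes (25.7%, background 12.3%), with KLA and not Veh at 3 (8.57%, background 4.14%). Start-site peaks of these other factors were therefore also more frequent with KLA at the interferon response genes, and their part in the AP-1 gain was not tested.

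**Figure D4:**
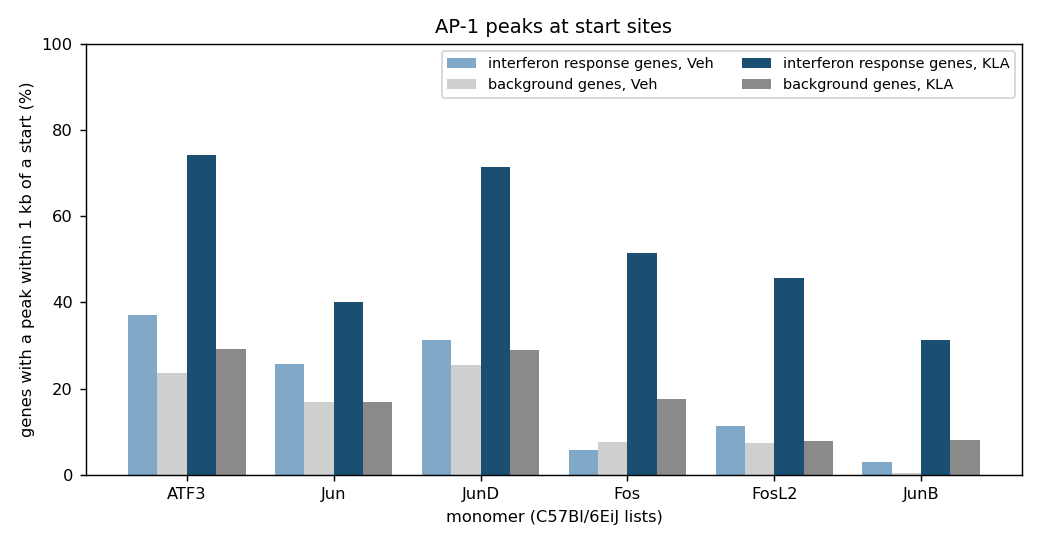
Percent of the 35 interferon response genes (blue) and of the 14453 background genes (grey) with a peak of each AP-1 monomer within 1 kb of an annotated start, in C57Bl/6EiJ TGEMs with Veh (light) and KLA (dark). The dark blue bars run from 31.4% for JunB to 74.3% for ATF3 and stand above the dark grey bars, which run from 7.89% to 29.3%.

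Overlapping peaks of the 12 AP-1 lists formed 188 loci in the windows of the interferon response genes. Of these, 103 had peaks with KLA alone (54.8%), 77 with both treatments (41.0%) and 8 with Veh alone (4.26%). The 39517 loci in the windows of the background genes were divided into 37.4%, 48.8% and 13.8%. Among the loci with KLA alone, ATF3 was present at 82.5% (background genes 76.2%), JunD at 71.8% (60.0%), Fos at 40.8% (43.4%), Jun at 20.4% (22.2%), FosL2 at 20.4% (13.3%) and JunB at 18.4% (17.5%). A single monomer was present at 34 of the 103 and 4 or more at 27 (26.2%, background genes 21.9%). The loci gained with KLA were thus mostly ATF3 and JunD loci in both sets.

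The share of these loci with a PU.1 peak was compared next. A PU.1 peak with Veh overlapped 59.7% of the 77 loci present with both treatments (60.0% for background genes) and 20.4% of the 103 loci present with KLA alone (22.6%). With KLA the PU.1 shares were 76.6% (65.7%) and 39.8% (36.8%). CEBPa with Veh overlapped 4.85% of the loci with KLA alone (4.78%) and CEBPa with KLA 15.5% (15.2%). PPARg with Veh overlapped 70.1% of the loci present with both treatments (64.0%) and 21.4% of those with KLA alone (18.6%). Most AP-1 loci that appeared with KLA at the interferon response genes thus had no PU.1 peak with Veh, as at the background genes.

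The ISRE core was more common at these loci than at those of the background genes, while the shares with the TRE lay close together. In the central 200 bp, the ISRE core was found at 31 of the 188 loci (16.5%, background genes 3.85%) and the TRE at 52 (27.7%, background genes 25.6%). The CRE was found at 1 (0.532%, background genes 1.58%), the PU.1 motif ACTTCCT at 26 (13.8%, background genes 18.2%) and the NF-kB motif at 5 (2.66%, background genes 2.70%). The ISRE core stood at 15 of the 103 loci with KLA alone (14.6%, background genes 5.22%) and at 15 of the 77 present with both treatments (19.5%, background genes 3.30%). In the central 100 bp the order was the other way around, with 12 of the 103 (11.7%, background genes 2.59%) and 6 of the 77 (7.79%, background genes 1.54%), so the order of these classes depended on the width.

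The ISRE core in the central 200 bp was also counted by distance from a start. Of the loci with KLA alone, it was found at 9 of the 31 within 1 kb of a start of any protein-coding gene (29.0%, background genes 5.83%) and at 6 of the 72 farther away (8.33%, background genes 5.09%). Of the loci with both treatments, it was found at 7 of 33 within 1 kb (21.2%, background genes 2.81%) and at 8 of 44 farther away (18.2%, background genes 3.44%). The TRE was arranged the other way around, at 16.4% of the loci within 1 kb of a start and at 33.9% of those farther away, against 12.7% and 29.3% for background genes. In both sets the AP-1 motif was therefore more common at distal loci than at start sites. Many of these genes are known as interferon responsive because of such elements in their promoters, so the comparison with background is a description of the list.

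**Figure D5:**
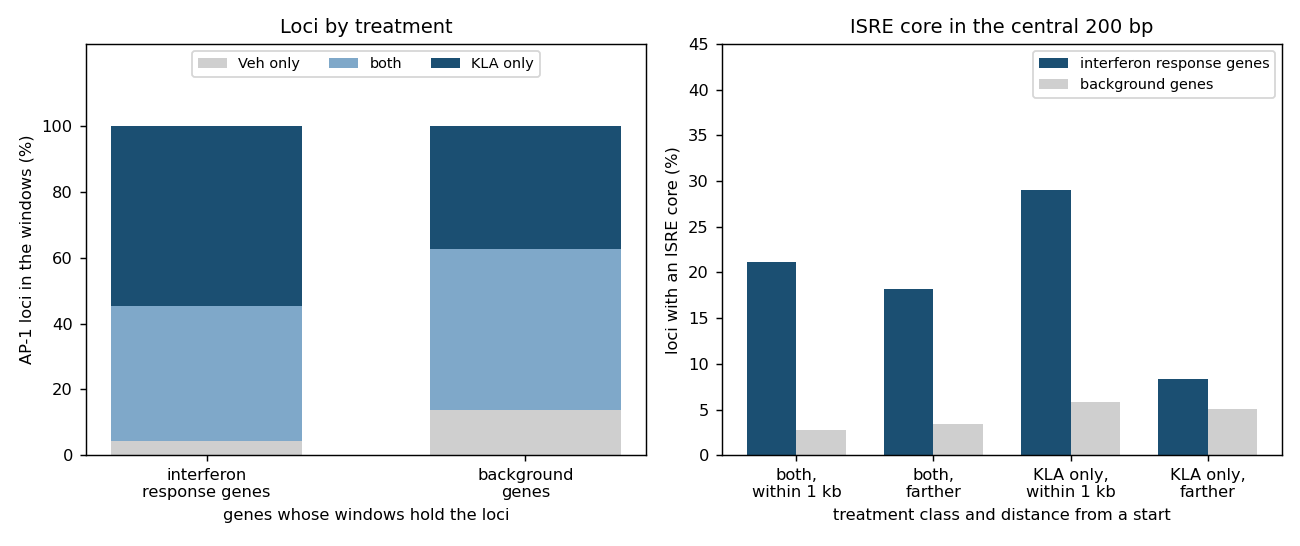
Left, percent of AP-1 loci in the windows of the interferon response genes (188 loci) and of the background genes (39517 loci) with peaks in C57Bl/6EiJ with Veh alone, both treatments or KLA alone. Right, percent of loci with an exact ISRE core in the central 200 bp, by class and distance from a start, which is highest at 29.0% for loci with KLA alone within 1 kb of a start of the interferon response genes.

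RefSeq promoters were at hand for 29 of the 35 genes, and some genes had several. A member was counted when any of its promoters held a match, while the shares of all promoters are per promoter. The units therefore differ. Within the 250 bases ahead of the start, the ISRE core was found in 12 genes (Bst2, Gbp2, Gbp3, Gbp5, Ifit1, Ifit3, Irf2, Isg15, Oas1a, Oas3, Rsad2 and Stat2) and in 2.98% of all 32851 promoters. The TRE was found in Gbp2, Oas3 and Rsad2, against 4.46% of all promoters, and the NF-kB motif in Gbp5 and Irf2, against 1.41%. The PU.1 motif was found in Adar, Eif2ak2, Irf1 and Trim25, against 7.69%, and the CRE in 0, against 1.55%. Of the 13 genes whose start-site peaks appeared with KLA, 6 are among the 12 with an ISRE core and 1, Rsad2, has a TRE. Matches are descriptions of the letters and do not show which protein binds them.

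In Balb/cJ TGEMs the pattern after KLA had the same direction. ATF3 peaks were found at 25 of the 35 genes with Veh (71.4%, background 64.7%) and 32 with KLA (91.4%, background 81.8%), Jun peaks at 19 (54.3%, background 44.8%) and 30 (85.7%, background 47.6%), and JunD peaks at 30 (85.7%, background 77.2%) and 33 (94.3%, background 81.0%). Fos peaks with KLA were found at 34 (97.1%, background 81.3%) and JunB peaks at 28 (80.0%, background 57.4%). The 5 monomers stood above background with KLA in both.

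An AP-1 peak lay within 1 kb of a start in Balb/cJ at 22 genes with Veh (62.9%, background 37.0%) and 31 with KLA (88.6%, background 51.8%). It was present with KLA and not Veh at 12 genes (34.3%, background 19.4%). Of the 13 genes with such a gain in C57Bl/6EiJ, 12 had a start-site peak with KLA in Balb/cJ, all but Bst2. No background share is given for these 12. Of the 12, 6 had none there with Veh (17.1% of the 35 genes, background 4.44%): Ifnb1, Ifit1, Ifit3, Isg15, Oas1a and Oasl1. Of the 1304 background genes with the gain in C57Bl/6EiJ, 641 had it in both strains. Among genes with the gain in C57Bl/6EiJ, it thus recurred about as often in the background (641 of 1304) as here (6 of 13). At Irf9, Rsad2, Cmpk2, Ifih1, Ddx58 and Adar a start-site peak was already listed with Veh in Balb/cJ. At the start of Rsad2, ATF3 had a count of 25 with Veh (percentile 26.5) and 114 with KLA (percentile 88.8) in that strain, and JunD 43 (percentile 50.7) and 114 (percentile 88.6).

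Gene by gene, a KLA peak in C57Bl/6EiJ was also found in Balb/cJ at 32 of 34 genes for ATF3 (94.1%, background genes 94.8%), at 31 of 33 for JunD (93.9%, background 94.5%), at 30 of 31 for Fos (96.8%, background 97.7%), at 22 of 24 for JunB (91.7%, background 91.7%) and at 26 of 26 for Jun (100%, background 73.8%). Trim21 had ATF3, JunD and Fos peaks with KLA in C57Bl/6EiJ and no KLA peak of any of the 5 monomers in Balb/cJ, and Eif2ak2 had a Fos peak alone there. In the other direction Ddx58 had 1 monomer with KLA in C57Bl/6EiJ and 5 in Balb/cJ, and Oas2 had JunD (count 34, percentile 28.2) and Fos (count 30, percentile 7.6) peaks with KLA in Balb/cJ. With Veh the corresponding numbers were 22 of the 28 for ATF3 (78.6%, background 84.4%), 16 of 23 for Jun (69.6%, background 67.9%) and 23 of 24 for JunD (95.8%, background 92.8%). The Balb/cJ reads were mapped to another genome sequence and shifted to mm10, and whether any strain difference exceeds replicate error could not be tested.

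The ranks of named loci differed between the strains to varying degrees. The strongest locus of Gbp2, at its start, reached with KLA percentile 98.2 for ATF3, 99.0 for Jun, 99.8 for JunD, 98.5 for Fos and 97.4 for JunB in Balb/cJ, each above its percentile in C57Bl/6EiJ. At Ifnb1 the distal ATF3 locus was at percentile 97.2 with Veh and 95.8 with KLA in Balb/cJ, and JunD had a peak there with KLA (percentile 83.1) and none with Veh. At the Ifnb1 start, all 5 monomers had KLA peaks in Balb/cJ, the highest ATF3 (count 57, percentile 63.8).

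In PPARgKO TGEMs with Veh, ATF3 peaks were found at 30 of the 35 genes (85.7%, background 78.8%), JunD peaks at 24 (68.6%, background 70.6%) and Jun peaks at 10 (28.6%, background 24.5%). Of the genes with a Veh peak in C57Bl/6EiJ, the knockout list also had one at 26 of 28 for ATF3 (92.9%, background 94.9%), at 21 of 24 for JunD (87.5%, background 85.7%) and at 10 of 23 for Jun (43.5%, background 40.1%). The 13 genes with a Jun peak in C57Bl/6EiJ alone were Ifnb1, Irf1, Irf3, Ifit3, Isg15, Mx1, Oas3, Dhx58, Eif2ak2, Zbp1, Trim21, Gbp2 and Gbp5, and 0 genes had one in the knockout alone. The Jun list held 4290 peaks in the knockout and 15548 in C57Bl/6EiJ, and the loss at the interferon response genes was close to that at the background genes. At the distal locus of Ifnb1 the ATF3 peak remained with a count of 160 (percentile 99.2).

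The other genes of the pathway also had more peaks with KLA. These were 44 further genes, fixed as a list of receptors, signalling proteins and other interferon-stimulated genes. An AP-1 peak was found at 40 with Veh (90.9%, background 80.5%) and at 43 with KLA (97.7%, background 83.6%), so their share was above background before treatment also. All 6 monomers were found with KLA at 23 (52.3%, background 31.7%). The number of monomers was higher with KLA at 40 (90.9%, background 63.1%), and a start-site peak was found with KLA and not Veh at 11 (25.0%, background 9.02%). Among 11 receptor and receptor-signalling genes all 6 monomers were found with KLA at Ifnar1, Ifnar2, Jak1, Jak2, Tyk2 and Irf8. Among 8 genes that induce interferon they were found at Ticam1, Ticam2, Traf3, Tbk1 and Ikbke, and among 25 other interferon-stimulated genes at 12. Ifi44 was the 1 gene of the 44 with no AP-1 peak with KLA.

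The 5 highest of these by the percentile of a KLA peak were upstream components. Ticam1, the adaptor TRIF through which TLR4 induces interferon, had a Jun peak of percentile 99.9 (count 127) at -89 bp from its start. Ikbke, a kinase that phosphorylates Irf3, had a JunD peak of percentile 97.6 (count 785) at -59 bp. Jak2 had a Fos peak of percentile 98.9 at -10086 bp. For Ifnar2, a subunit of the interferon receptor, and Traf3 the strongest peaks, ATF3 at percentiles 99.1 and 99.0, lay nearest to the starts of Il10rb and 4930595D18Rik.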

How the data were processed

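Each sample's file was a peak list of ChIP-seq in TGEMs, with 30 lists for 34 samples, and the other 4 samples were inputs without a list. Per the labels and the study's methods, the authors aligned the reads with Bowtie2 and called peaks with HOMER on mm10 (tools per the submitters' processing notes, versions not given in the sources used here), mapped Balb/cJ reads to a Balb/cJ genome with positions shifted to mm10, and kept peaks reproducible between replicates at an irreproducible discovery rate (IDR) of 0.05. Each deposited peak holds a count, not scaled between lists, and a scaled IDR score, which ran from 540 to 1000. How counts were combined over replicates is not given in the sources used here, and library depth was not analysed here, so peaks were compared by their rank within a list. Coordinates are as the files give them.

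Peaks were assigned by midpoint to genes of GENCODE vM21 with Python 3.11.15, numpy 2.4.6 and pandas 2.3.3, and drawn with matplotlib 3.10.9. Ties in count took their mean rank. Counting was tested on simulated data. Promoters came from RefSeq (GRCm38.p6, 29 of 35 members matched), and motif matches were exact. The genes and lists were chosen with earlier results of these data known. Described with coordinates and counts were, by rule, the gene with the highest KLA percentile in each role group, the 10 highest of all, Ifnb1, Irf1, the genes with a start-site peak in KLA and not Veh, the gene without a peak, and the 5 highest other pathway genes. Other genes are described more briefly, and details of theirs were chosen after their values were seen. Alternatives were other windows, peak thresholds, assignments and backgrounds.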

Additional observations from a re-analysis of the deposited data

How the results depend on the processing

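After KLA the share of interferon response genes with a peak exceeded background for all 6 monomers under every alternative except 1, the strongest 10000 peaks of each list, where Fos fell below it by -1.8 percentage points and the other 5 stood above it by up to 13.2 (Veh lists of Fos, FosL2 and JunB were too short to enter). The excess was 10.1 to 20.1 points with the strongest 50% of each list, 10.6 to 27.4 with 5 kb flanks, 15.2 to 26.5 with a stricter IDR of 0.01 (score of at least 830) and 23.7 to 33.0 when a peak counted only for the nearest start. With Veh, ATF3, Jun and JunD (11.4, 7.9 and 1.6 points above background as reported) turned below it with 5 kb flanks (-7.2, -5.3 and -15.0) and with the strongest 10000 peaks (-14.4, -21.7 and -5.1), as did Jun with the stricter IDR (-7.8) and ATF3 and Jun with the strongest 50% (-3.8 and -7.6). With the strongest 10000 peaks the PU.1 list was cut too, so the background genes were not those of the main comparison. The cause was not tested.

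The shares themselves fell where fewer peaks could count. With 5 kb flanks they were 51.4% for ATF3 Veh, 42.9% for Jun Veh, 57.1% for Jun KLA, 42.9% for JunD Veh and 71.4% for Fos KLA, and the genes with a peak in KLA and not in Veh numbered 13 for ATF3 and 15 for JunD. With the stricter IDR they were 42.9% for Jun Veh and 71.4% for Fos KLA, and 10 genes gained Jun. With the strongest 50% they were 48.6% and 80.0% for ATF3 Veh and KLA, 34.3% for Jun Veh, 74.3% for JunD KLA, 60.0% for Fos KLA, 40.0% for FosL2 KLA and 51.4% for JunB KLA, and 12, 10 and 8 genes gained ATF3, Jun and FosL2. With the strongest 10000 they were 42.9% and 62.9% for ATF3 Veh and KLA, 37.1% for Jun Veh, 62.9% for JunD KLA and 51.4% for Fos KLA, and 11 and 5 genes gained Jun and JunD. By nearest start they were 51.4% for ATF3 Veh, 48.6% for Jun Veh, 48.6% for JunD Veh and 68.6% for Fos KLA, and 13 genes gained ATF3. With overlapping windows joined, ATF3 KLA was 100%. No background share of genes gaining a peak is given for these settings, so these counts of gains are not a comparison with other genes.

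Counting any overlap with the window, or restricting the list to genes with a PU.1 peak with Veh (chosen after seeing the data), moved no share by more than its counting interval. No paired analysis was possible because each condition had 1 list. Each share rests on 35 genes that partly share windows. The start-site counts were not repeated under these alternatives.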
